A study of Mus musculus with 12 samples.

Results

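The 10 genes described here, Slc2a1, Hk2, Pfkp, Pfkfb3, Aldoa, Gapdh, Pgk1, Eno1, Pkm and Ldha, are those of glucose uptake and glycolysis chosen by name from the 23238 gene symbols measured, and all 10 were found. They were measured by RNA-seq in cells sorted from mouse lung as CD74-positive, EpCAM-positive alveolar type II (ATII) cells, the epithelial cells that make surfactant. Each of the 4 groups (Con, BLM, KO, KOBLM) held 3 mice, with 1 library per mouse. Con were PBS-treated Spc-p300 f/f mice (the sample labels call them negative controls) and BLM were Spc-p300 f/f mice given bleomycin, a DNA-breaking drug that injures the lung, at 4 mg/kg into the trachea. KO were PBS-treated and KOBLM bleomycin-treated Spc-p300 d/d mice, in which Spc-CreERT2 deletes the histone acetyltransferase p300 (Ep300) after tamoxifen. The labels give tamoxifen (10 mg/kg at 8 weeks of age, before bleomycin) for all 4 groups. For sorted ATII cells measured by qRT-PCR, the study describes vehicle or tamoxifen treatment. Whether Con and BLM mice received tamoxifen is therefore not settled by the sources used here. The sort protocol of the study names C57BL/6 mice beside the deleted ones, so the genotype of Con and BLM is not settled by the sources used here. Cre is limited to cells in which the Spc promoter is active, and the time between bleomycin and the sort was not given in the sources used here.

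Glycolysis splits glucose into pyruvate in the cytosol and yields ATP without oxygen. Glucose enters through transporters such as GLUT1 (Slc2a1) and is trapped by hexokinase (Hk2). Phosphofructokinase (Pfkp) sets the pace of the pathway, under the control of a bifunctional enzyme (Pfkfb3). Aldolase (Aldoa), glyceraldehyde-3-phosphate dehydrogenase (Gapdh), phosphoglycerate kinase (Pgk1), enolase (Eno1) and pyruvate kinase (Pkm) carry the later steps, and lactate dehydrogenase (Ldha) turns pyruvate into lactate. Several of these genes are known targets of hypoxia-inducible factors, which bind the core sequences ACGTG and GCGTG, and of which p300 is a known coactivator.

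Libraries held between 7005005 and 11153154 counts, and 3 counts, taken as the detection floor, were worth 0.269 to 0.428 CPM (counts scaled to the library total). Levels below are CPM after TMM scaling. The kit reads the 3′ end of each transcript, so counts do not grow with length. Levels of different genes can be set side by side, except where the 3′ end is largely shared with other genes, as for Gapdh and Eno1. BLM replicate 3 stood apart, with 6847 genes with a count against 8790 to 13838 elsewhere. It had 2119 CPM of pluripotency markers (at most 18.2 elsewhere) and 885 CPM of macrophage markers (at least 9810 elsewhere). After it, KO replicate 3 (8790 genes) and KOBLM replicate 2 (9018 genes) had the fewest genes. KOBLM replicate 2 also had 9333 CPM of erythroid markers, against 695 and 626 CPM in KOBLM replicates 1 and 3 and at most 999 CPM in Con.

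The labelled cell type was checked by its markers. Summed ATII markers lay between 595 and 2213 CPM in Con and between 461 and 558 in BLM. The deleted groups had 220 to 688 CPM (KO) and 203 to 713 CPM (KOBLM). Sftpc, which encodes surfactant protein C, ran from 129 to 619 CPM in Con and from 20.1 to 59.4 CPM in BLM, and Lamp3 was at 0 in at least 1 BLM library and 1 KOBLM library. Macrophage markers exceeded the ATII markers in 12 of 12 libraries, by 1.91 to 109.7 times, and held 12690 to 24979 CPM in Con and 885 to 13030 CPM in BLM. They held 13457 to 37754 CPM in KO, and KOBLM libraries had 9810 to 23717 CPM. Fibroblast markers ran from 86.8 to 426 CPM in Con and from 913 to 1876 in BLM, without overlap, and from 172 to 645 CPM in KOBLM, below each BLM library. Markers of ATI cells (149 to 266 CPM in Con, 322 to 387 in BLM) and of club and ciliated cells (22.3 to 119 in Con, 175 to 252 in BLM) also separated BLM from Con as higher. Erythroid markers separated them as lower (171 to 999 in Con, 12.9 to 79.4 in BLM). B cell markers did too (24.3 to 61.7 in Con, 0 to 11.7 in BLM). Neutrophil markers overlapped between Con (143 to 3516 CPM) and BLM (110 to 5718 CPM). They ran from 319 to 969 CPM in KO and from 1438 to 2244 CPM in KOBLM. In bulk RNA, more cells of a type and more RNA per cell cannot be told apart, and the part of these other cell types in the results below was not tested. Ep300 itself was at 134, 145 and 47.6 CPM in Con and at 152, 184 and 92.7 CPM in KO. The reads come from the 3′ end, outside the floxed exon 9, so these values do not check the deletion. The study itself checked the deletion by qRT-PCR of sorted ATII cells and by co-staining of lungs. It assessed the purity of the sort by staining for surfactant protein C.

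**Figure D1:**
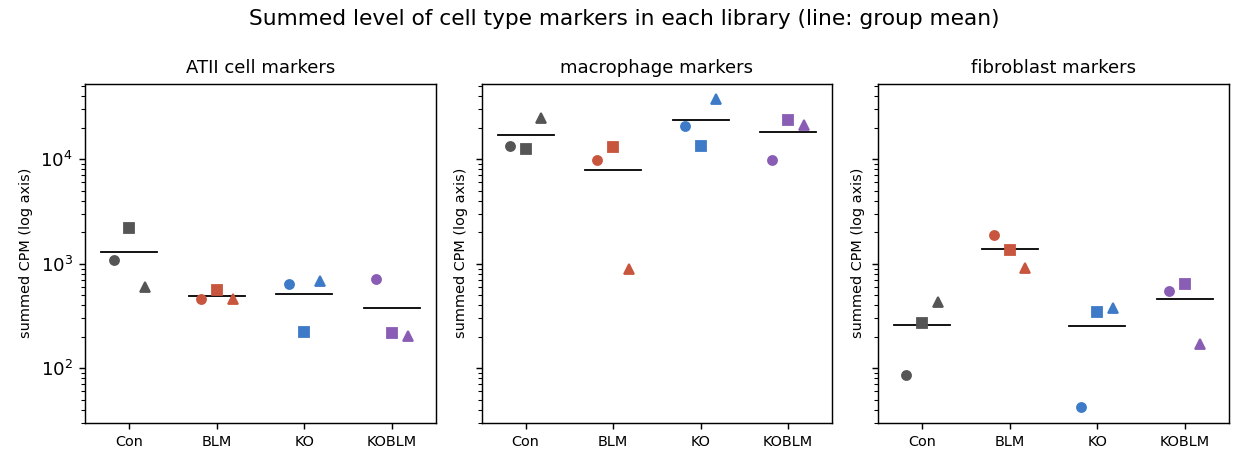
Summed CPM (log axis) of the ATII, macrophage and fibroblast marker lists in each library, by group; symbols mark replicates 1 to 3 and lines the group means. Macrophage markers lie above ATII markers in 12 of 12 libraries, and fibroblast markers are higher in every BLM library than in every Con library.

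The DNA before the start of members whose libraries separated between BLM and Con is shown because of the hypoxia-inducible factor motifs. The RefSeq windows (GRCm38.p6) covered 250 bases before and 50 after each start. All 10 members matched, with 17 windows. ACGTG or its reverse complement was in 10 of the 17 windows and GCGTG in 9, against 19.62% and 32.39% of all 32851 promoter windows. By gene, 8 of the 10 members had ACGTG in at least 1 window and 6 had GCGTG. Windows of 1 gene can overlap, so the same motif can count in more than 1 window, as for Aldoa. The share of all genes with a motif in any window was not computed, so the counts by gene have no background here. The stretches run 5′ to 3′ along the gene, up to the first annotated exon, and capitals mark either motif, read on this strand or the other. For Slc2a1 (chr4:119108595-119108713, plus strand) the run ends with a motif of which 3 bases lie in an annotated exon, for Pgk1 it is chrX:106186950-106187099 (plus strand) and for Aldoa chr7:126799255-126799404 (minus strand).
Slc2a1: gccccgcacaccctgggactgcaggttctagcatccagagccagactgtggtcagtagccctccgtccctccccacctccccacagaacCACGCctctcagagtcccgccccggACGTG
Pgk1: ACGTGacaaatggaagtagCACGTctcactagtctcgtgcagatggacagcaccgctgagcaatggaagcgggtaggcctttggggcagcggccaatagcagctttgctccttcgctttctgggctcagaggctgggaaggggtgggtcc
Aldoa: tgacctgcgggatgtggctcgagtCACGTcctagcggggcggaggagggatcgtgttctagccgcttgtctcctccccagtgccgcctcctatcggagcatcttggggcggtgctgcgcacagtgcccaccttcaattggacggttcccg
Slc2a1 holds 1 motif of each kind, and Pgk1 has ACGTG on both strands, 150 and 131 bases before the start. Aldoa has it 126 bases before the start shown. Only windows with ACGTG were considered for printing, so its presence there follows from the choice. Another Aldoa window (chr7:126800398-126800697) and a Pkm window (chr9:59656326-59656625) held neither motif. The Pkm window with ACGTG lies mostly in an annotated exon and is not printed. A match describes letters in these windows and is neither a binding site nor a cause of the levels.

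In the order of their mean over all 12 libraries, Aldoa was highest with 681 CPM, followed by Pkm (389), Ldha (221), Hk2 (188), Pfkp (116), Slc2a1 (69.8), Gapdh (64.3), Pfkfb3 (42.6), Pgk1 (41.2) and Eno1 (0.715). Neighbours in this order changed places between libraries. Aldoa exceeded Pkm in 9 of 12 libraries, and the other 3 were the BLM libraries, in each of which Pkm was the highest of the 10 genes. Pkm exceeded Ldha in 10 libraries, while Slc2a1 exceeded Gapdh, and Pfkfb3 exceeded Pgk1, in 6. For each of the first 8 neighbouring pairs the mean log2 ratio was smaller than its SD over the libraries. Pgk1 and Eno1 were the exception, with 4.59 ± 1.10 (SD, n = 12, pseudocount 1). The places of Gapdh and Eno1 in this order are uncertain, as their 3′ ends are largely shared with other genes. Summed over the 10 genes, between 0.124% and 0.253% of a library's counts fell on them, with 8 to 10 members counted per library. Slc2a1 was at 0 in 2 libraries, Pfkfb3 in 1 and Eno1 in 7, and the other 7 members had more than 3 counts in every library.

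The 3′ end of Eno1 is largely shared with another gene. Of 426 windows of 75 nt in the last 500 nt of the Eno1 transcript, 61.97% occur exactly in Eno1b, a retrogene copy of Eno1. The Eno1 symbol received 66 counts over all libraries and Eno1b, listed under 2 entries that were summed, received 13572, so the Eno1 values cannot be separated from Eno1b. For Gapdh, 84.04% of the windows occur in other annotated genes, 74 of 77 of them pseudogenes, and its level is uncertain in the same way. For Pgk1 the share was 1.878%, and for the other 7 members it was 0.

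To ask how bleomycin changed these genes, BLM was compared with Con. Pkm rose in the bleomycin-treated mice and was the one member past the threshold of the study (a fold of more than 1.5 with an unadjusted p below 0.05). It was at 181, 188 and 360 CPM in Con and at 623, 782 and 696 CPM in BLM. Every BLM library lay above every Con library. The log2 fold change was 1.53 ± 0.60 (SE), with an unadjusted p of 0.0229 and an adjusted p of 0.995 by the edgeR quasi-likelihood test. The call was lost without Con replicate 1, Con replicate 2 or BLM replicate 2, at log2 fold changes of 1.35, 1.37 and 1.43. Pkm lies on chr9:59656368-59679375 (plus strand, GRCm38).

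In this comparison 1 of 10 members passed, beside 4.27% of all 13054 tested genes. No gene had an adjusted p under 0.05 by edgeR, and 12 genes, none of them members, did when genes with low counts were kept. DESeq2, as another tool, called 2 members (Pkm and Pgk1) at the unadjusted threshold and none adjusted. Without the 3 libraries with the fewest genes, left out after the data were seen, edgeR called 3 members (Pkm, Slc2a1 and Pfkfb3). Groups did not overlap for 4 of 10 members, beside 16.0% of all tested genes. Of these, Pkm, Slc2a1 and Pgk1 lay higher in BLM and Aldoa lower. The median log2 fold change of the 10 members was 0.95, against -0.08 for all tested genes.

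Slc2a1 (chr4:119108711-119137983, plus strand), the transporter that brings glucose into many cells, was at 10.2, 3.14 and 44.7 CPM in Con and at 99.8, 84.8 and 327 CPM in BLM. The groups did not overlap, and BLM replicate 3 was the highest of all 12 libraries. The log2 fold change was 3.14 ± 1.97 (SE, unadjusted p = 0.133 by edgeR, exact permutation p = 0.1, the smallest that 3 against 3 mice can give). It was 2.25 without BLM replicate 3 and 4.67 without Con replicate 3, the highest of Con.

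Pgk1 (chrX:106187100-106203699, plus strand), which makes the first ATP of the pathway, was at 8.91, 22.0 and 30.2 CPM in Con and at 40.8, 58.1 and 109 CPM in BLM. All BLM libraries were higher, and BLM replicate 3 again had the highest value. The log2 fold change was 1.77 ± 0.93 (SE, unadjusted p = 0.0770 by edgeR), and 1.28 without BLM replicate 3.

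Aldoa (chr7:126795234-126800751, minus strand), which splits fructose 1,6-bisphosphate, had the opposite direction. It was at 859, 780 and 531 CPM in Con and at 401, 452 and 381 CPM in BLM, and no BLM library reached the lowest Con library. The log2 fold change was -0.82 ± 0.48 (SE, unadjusted p = 0.108 by edgeR). For Pkm and Aldoa, the values without BLM replicate 3 were 1.53 and -0.76.

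Among the uptake and early steps, Hk2 was at 62.4, 84.2 and 191 CPM in Con and at 163, 243 and 256 CPM in BLM, with 1 Con library (replicate 3) inside the BLM range. Pfkp, which commits fructose 6-phosphate to glycolysis, was at 172, 113 and 217 CPM in Con and at 70.2, 128 and 75.02 CPM in BLM, and the groups overlapped by 1 library on each side. Neither passed, with log2 fold changes of 0.97 ± 0.74 (SE) and -0.88 ± 0.54 (SE), and Hk2 had 1.59 without Con replicate 3. Pfkfb3 was at 31.4, 18.3 and 40.4 CPM in Con and at 78.5, 93.4 and 0 CPM in BLM. The library at 0 was BLM replicate 3, and the log2 fold change of 0.93 ± 1.43 (SE) became 1.52 without it, past the threshold.

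Gapdh was at 99.9, 51.2 and 75.6 CPM in Con and at 58.6, 72.0 and 92.6 CPM in BLM, with a log2 fold change of -0.02 ± 0.69 (SE) whose sign turned with DESeq2's size factors (0.08) and with library size alone (0.02). Ldha was at 169, 185 and 229 CPM in Con and at 236, 346 and 98.7 CPM in BLM, where BLM replicate 3 was below all Con libraries. Its log2 fold change was 0.22 ± 0.54 (SE), and 0.58 without BLM replicate 3. Eno1 stayed at or under 3.23 CPM in every library. Eno1b, which carries the enolase counts, was at 69.8, 38.4 and 102 CPM in Con and at 180, 184 and 293 CPM in BLM. It passed the threshold with a log2 fold change of 1.64 ± 0.65 (SE, unadjusted p = 0.0233, adjusted p = 0.995 by edgeR), and Eno1 and Eno1b summed, a choice made after seeing the data, gave 1.64 too. The Eno1b call was lost without Con replicate 1 (1.63) or Con replicate 2 (1.35).

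**Figure D2:**
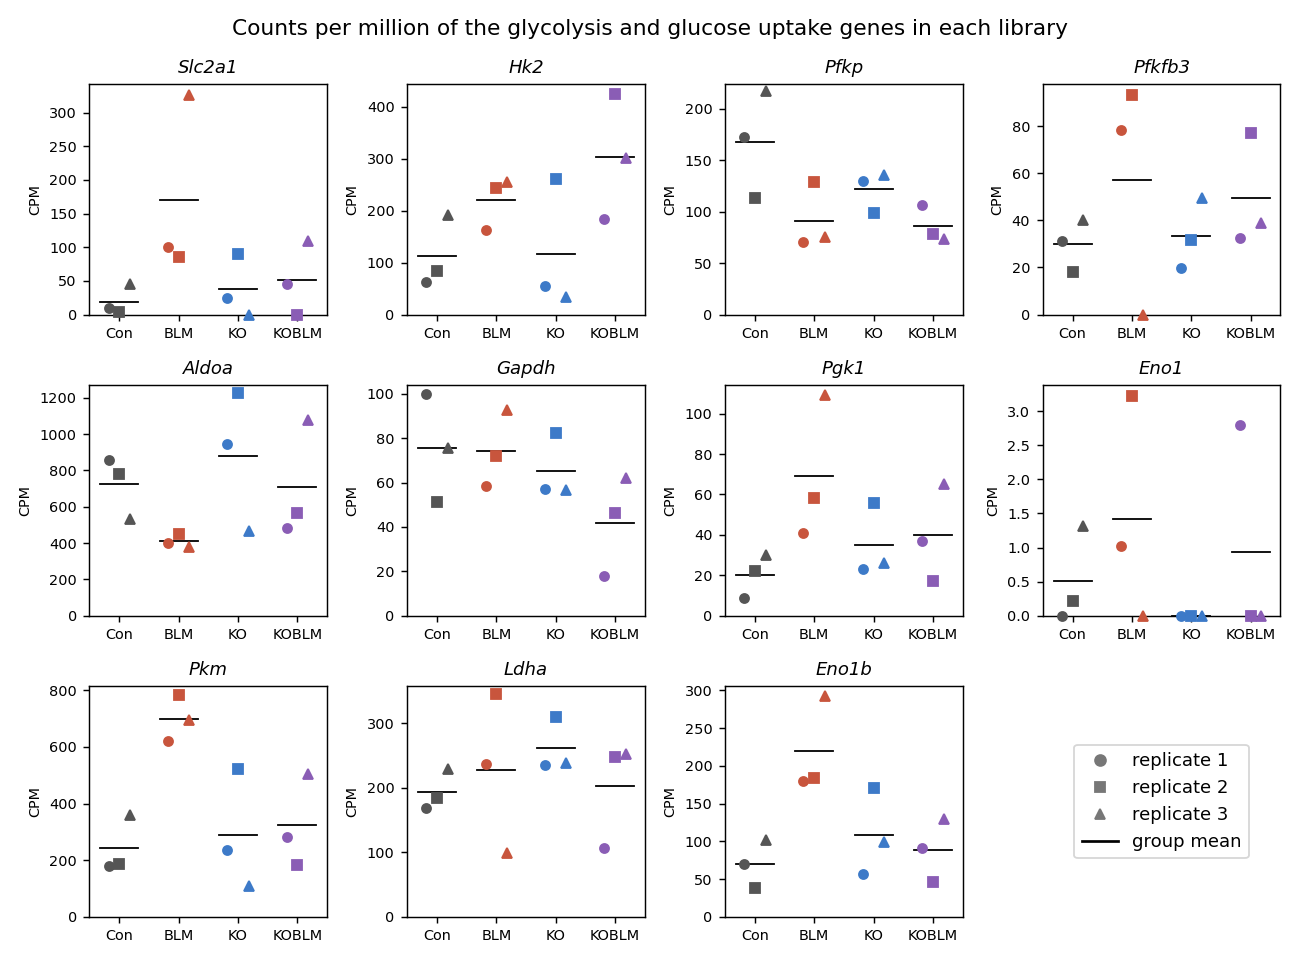
CPM (linear axes that start at 0) of each gene and of Eno1b in each of the 12 libraries, by group; symbols mark replicates 1 to 3 and lines the group means. Pkm, Slc2a1, Pgk1 and Eno1b are higher in every BLM library than in every Con library, and Aldoa is lower.

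To ask whether p300 in ATII cells alters the levels after bleomycin, KOBLM was compared with BLM. This comparison uses the same BLM libraries as the one above, so the 2 are not independent. No member passed the threshold (0 of 10, beside 3.16% of all tested genes; 0 at an unadjusted p under 0.05 by edgeR and 0 by DESeq2). Groups did not overlap for Pkm, lower in KOBLM, and Aldoa, higher in KOBLM, that is for 2 of 10 members beside 10.8% of all tested genes.

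Pkm was at 283, 183 and 506 CPM in KOBLM, below each of the 3 BLM libraries. The log2 fold change was -1.11 ± 0.59 (SE, unadjusted p = 0.0817 by edgeR). It passed the threshold without KOBLM replicate 3, the highest of its group (-1.59), and with scaling by library size alone (-1.25). Aldoa was at 485, 563 and 1075 CPM, above each BLM library, with a log2 fold change of 0.78 ± 0.48 (SE, unadjusted p = 0.121 by edgeR). Eno1b was at 91.6, 45.5 and 129 CPM, also below each BLM library (-1.30 ± 0.64 on the log2 scale, SE, unadjusted p = 0.0611 by edgeR).

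Slc2a1 was at 45.8, 0 and 109 CPM in KOBLM and Pgk1 at 37.1, 17.4 and 65.2 CPM, and both overlapped BLM. Their log2 fold changes were -1.72 ± 1.86 (SE) and -0.80 ± 0.91 (SE). Without BLM replicate 3 they were -0.84 and -0.31, and Slc2a1 had -2.89 without KOBLM replicate 3. Hk2 had its highest value of all libraries here, 425 CPM in KOBLM replicate 2, beside 183 and 301 CPM, and its log2 fold change was 0.46 ± 0.73 (SE). KOBLM replicate 2 was also the library with the most erythroid marker CPM. Gapdh was at 17.8, 46.1 and 62.0 CPM (-0.83 ± 0.70 on the log2 scale, SE). The log2 fold changes of Ldha (-0.17), Pfkp (-0.08), Pfkfb3 (-0.21) and Eno1 (-0.59) were smaller than their SE.

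**Figure D3:**
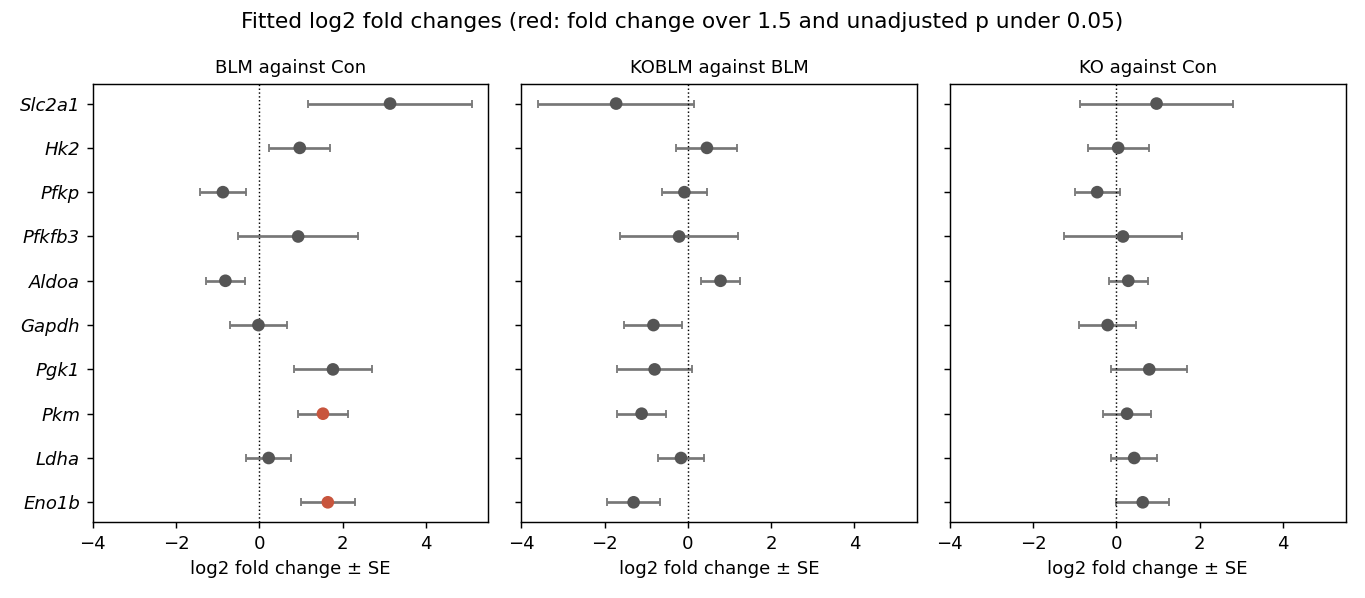
Fitted log2 fold change with its SE (x axis) of each gene (y axis; Eno1, at or near 0 counts, is left out and Eno1b shown) for BLM against Con, KOBLM against BLM and KO against Con; red marks a fold of more than 1.5 with an unadjusted p below 0.05. Pkm and Eno1b are the red points, both in BLM against Con; the panels share BLM or Con libraries.

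KO was compared with Con for the levels in PBS-treated mice. No member passed (0 of 10, beside 1.44% of all tested genes; 0 by DESeq2). Ldha alone did not overlap, at 235, 310 and 238 CPM in KO against at most 229 CPM in Con, which is 1 of 10 members beside 9.09% of all tested genes. KO replicate 2 had the highest KO value for Slc2a1 (24.1, 89.3 and 0 CPM), Hk2 (54.4, 260 and 33.3 CPM), Pkm (238, 523 and 109 CPM), Aldoa (948, 1229 and 467 CPM) and Pgk1 (23.3, 56.0 and 26.3 CPM). The log2 fold changes were 0.96 ± 1.83 for Slc2a1, 0.26 ± 0.59 for Pkm, 0.28 ± 0.47 for Aldoa and 0.79 ± 0.91 for Pgk1 (each with its SE). Without KO replicate 2 those of Slc2a1 and Pkm turned to -0.68 and -0.46, and without Con replicate 3 that of Slc2a1 was 2.50.

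Among p300-deleted mice, KOBLM was compared with KO, and no member passed (0 of 10, beside 1.69% of all tested genes; 0 by DESeq2) or separated (0 of 10, beside 6.87%). The log2 fold changes were 0.16 ± 0.59 for Pkm, 0.45 ± 1.82 for Slc2a1, 0.18 ± 0.90 for Pgk1 and -0.32 ± 0.47 for Aldoa (each with its SE). Hk2 passed only when KO replicate 2, its highest KO library, was left out (log2 fold change 2.77). The response to bleomycin was then compared between genotypes as an interaction. No member passed (0 of 10, beside 2.82% of all tested genes; 0 by DESeq2). For Pkm the bleomycin effect was lower in the p300-deleted mice by 1.37 ± 0.83 on the log2 scale (SE, unadjusted p = 0.123 by edgeR), so a difference between genotypes was not detectable for it at this spread. It was -0.61 without KO replicate 2, and it passed without KO replicate 3 (-1.75) and without all 3 libraries with the fewest genes (-1.48).

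The use of paralogues was read as the share of a member in the counts of its family. Hk2 made up 44.6% to 91.0% of hexokinase counts (Hk1, Hk2 and Hk3) and Aldoa 78.3% to 100% of Aldoa and Aldoc. Pfkp took 86.0%, 77.0% and 88.5% of phosphofructokinase counts in Con and 54.5%, 77.7% and 26.1% in BLM, so the BLM range began lower and the groups overlapped. The means were 83.8% ± 6.06 (SD, n = 3) and 52.8% ± 25.8 (SD, n = 3), with an exact permutation p of 0.2 and an adjusted p of 0.914. Without BLM replicate 3 the difference shrank from -31.1 to -17.7 percentage points. Ldha held at least 90.8% of Ldha and Ldhb counts in 11 of 12 libraries and 38.3% in BLM replicate 3, where Ldhb had 2201 counts. Over the 24 share tests (6 shares in 4 comparisons) the smallest adjusted p was 0.914.

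**Figure D4:**
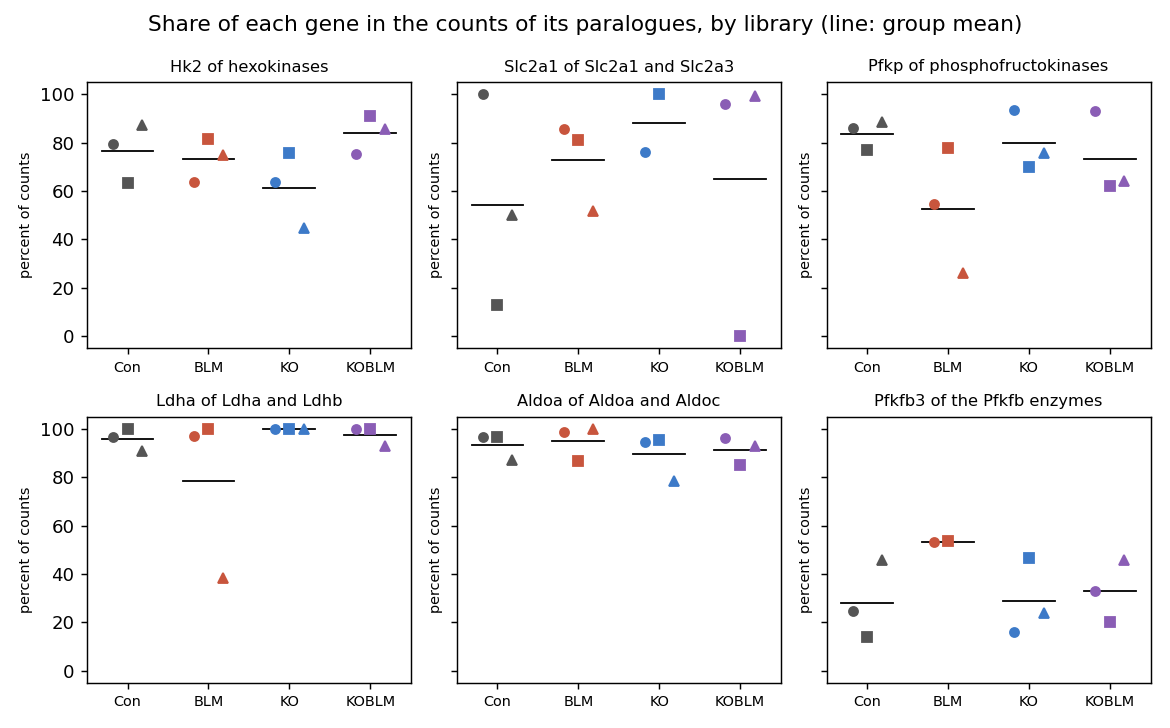
Share of each gene in the summed counts of its paralogues (percent, y axis) in each library, by group; symbols mark replicates 1 to 3, lines the group means, and libraries with no family count have no point. Ldha lies at 38.3% in 1 BLM library and at 90.8% or above in the others, and the Pfkp share of that BLM library is 26.1%.

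Outside the 10 members, 101 genes of glucose transport, glycolysis, pyruvate and lactate handling, the pentose phosphate pathway and hypoxia signalling were listed, of which 79 could be tested. In BLM against Con 2 of 79 rose and none fell, beside 4.27% of all tested genes that passed. In KOBLM against BLM none of 79 passed (3.16% of all), in KO against Con 1 rose and 3 fell (1.44% of all passed), and in KOBLM against KO 2 rose and none fell (1.69% of all). Their median log2 fold change in BLM against Con was -0.09, against -0.08 for all tested genes. None of the 13 tested genes of pyruvate entry into mitochondria, none of the 8 of the pentose phosphate pathway, none of the 8 tested hypoxia pathway regulators and none of the 12 hypoxia targets outside glycolysis passed in BLM against Con, beside 4.27% of all tested genes.

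Apart from Eno1b, the genes that passed were near 0 in most libraries, and their fitted folds depend on the fit, so counts are given. Slc2a6, a facilitative transporter of the glucose transporter family, had 226, 193 and 0 counts in BLM, none in Con and 0, 4 and 834 in KO, and passed in both comparisons against Con. In KO, 1 library carried nearly all of the counts. Pfkm, the muscle type phosphofructokinase, had no count in KO, 4, 502 and 53 in KOBLM and 78, 0 and 0 in Con. Ldhb, the other main lactate dehydrogenase subunit, had no count in KO, 0, 0 and 159 in KOBLM and 43, 0 and 263 in Con. Both passed against KO, which was lower than Con and lower than KOBLM. Pcx, pyruvate carboxylase, had no count in KO and 46, 0 and 75 in Con, and passed as lower in KO.

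Some members varied together. Over the 12 libraries Spearman's rho was 0.89 between Slc2a1 and Pgk1, 0.88 between Slc2a1 and Pkm and 0.86 between Pgk1 and Pkm, and -0.60 between Slc2a1 and Pfkp. Without BLM replicate 3 these were 0.86, 0.87, 0.84 and -0.50. The positive pairs are the highest among the members other than Eno1, and the negative pair is the lowest. Their size therefore follows in part from the choice. Other pairs lay between, such as 0.02 for Slc2a1 and Ldha and -0.17 for Slc2a1 and Aldoa. Slc2a1, Pgk1 and Pkm are also the members that were higher in every BLM library than in every Con library. Among 8782 other genes with a mean of at least 10 CPM, those most like the mean log2 CPM of the 10 members included Fbxo4 (rho 0.92), Med15 (0.92), Apoc2 (0.88) and Cd86 (0.87), with Pearson's r between 0.742 and 0.902. Without BLM replicate 3 their rho lay between 0.870 and 0.989. The genes most like the members were picked as the highest of 8782, so a high rho follows from the choice and was not tested. The mean of the members includes Eno1, Slc2a1 and Pfkfb3, which were at 0 in 7, 2 and 1 libraries. How far the likeness follows these zeros was not tested. All these values describe libraries that share their preparation and span 4 groups.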

How the data were processed

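RNA from the sorted cells of 12 mice was sequenced as single-end 75 nt reads of QuantSeq 3′ libraries. The authors deposited raw read counts per gene symbol for each library, without normalization; per the labels, Bowtie2, edgeR and mm10 were used in processing, with no versions or roles given in the sources used here. The sample labels gave the groups and the replicate numbers. Counts of the 79 entries of 35 repeated symbols were summed, Eno1b among them. Reads shared between near-identical genes cannot be reassigned from counts.

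Counts were filtered with filterByExpr (minimum count 10, minimum total count 15), scaled by TMM (factors 0.835 to 1.26) and fitted with edgeR 4.0.16 (R 4.3.3, limma 3.58.1) in a quasi-likelihood model of the 4 groups with 8 residual degrees of freedom. Tests were two-sided, and p-values were adjusted by Benjamini-Hochberg over 13054 genes. The biological coefficient of variation was 1.44. A gene was called at a fold of more than 1.5 with an unadjusted p below 0.05. Shares and single CPM values were compared with exact permutation tests. Intervals and the floor of 3 counts cover counting error only. The fitting code was run on simulated counts with known changes, and the outcome is not used here.

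The members, gene lists and comparisons were chosen with earlier results of these data known. Genes named are the members, their paralogues, Ep300, listed pathway genes that passed a comparison, and the 5 genes most like the members, of which 1 is not reported here. Sftpc, Lamp3 and Napsa, from the list of ATII markers, and Chil3, from the list of macrophage markers, were chosen after their values were seen. Alternatives were DESeq2 1.42.0 (test or size factors), library size alone, no low-count filter, the replicate block, only the groups compared, an adjusted p, and each library left out. Other steps ran in Python 3.11.15 (scipy 1.17.1, pandas 2.3.3, numpy 2.4.6; figures with matplotlib 3.10.9), with GENCODE M21 transcripts for the 3′ ends and RefSeq promoter windows.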

Additional observations from a re-analysis of the deposited data

Results flagged for a closer look

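The effect of bleomycin differed between genotypes, by the interaction test of edgeR at an unadjusted p under 0.05, for 4 of the 79 tested pathway genes outside the members, beside 2.82% of all tested genes; each had an adjusted p of 0.9999. Eno1b was higher in BLM than in Con (means 219 and 70.1 CPM) and not in KOBLM than in KO (88.8 and 109 CPM), with an unadjusted p of 0.0492 by the edgeR test. The interaction of Eno1b was not called in 9 of 12 omissions of a single library. The other 3 rest on libraries at 0. Slc2a6 had an edgeR p of 0.0332, and 1 KO library with 834 counts faced KOBLM libraries with 66, 0 and 300. Egln3, a prolyl hydroxylase of the hypoxia pathway, had an edgeR p of 0.0144, with 165, 104 and 0 counts in BLM, 0, 68 and 0 in KO and none in Con or KOBLM. Pcx had an edgeR p of 0.0366, with 46, 0 and 75 counts in Con, 2, 0 and 0 in BLM, none in KO and 18, 0 and 0 in KOBLM.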

How the results depend on the processing

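The call of Pkm in BLM against Con held under both other scalings and under the replicate block (1 member called with each), and the log2 fold change of Pkm lay between 1.35 and 1.92 when single libraries were left out. The number of members called was 2 without the low-count filter (Slc2a1 joined), with DESeq2 (Pgk1 joined), with only the groups compared (Slc2a1 joined) and with Eno1 and Eno1b summed, 0 with an adjusted p, and 0 to 2 with single libraries left out. It was 0 without Con replicate 1, Con replicate 2 or BLM replicate 2, and 2 without BLM replicate 3. Without the libraries with the fewest genes (BLM 3, KO 3 and KOBLM 2, chosen after seeing the data) it was 3 (Pkm, Slc2a1 and Pfkfb3), and 1 for the interaction (Pkm). In KOBLM against BLM it was 1 (Pkm) with library size alone and 0 to 1 with single libraries left out (1 without KOBLM replicate 3), and in KOBLM against KO and for the interaction 0 to 1. The cause was not tested.

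Of the other log2 fold changes, 29 values turned sign. For Gapdh in BLM against Con they were 0.0791 with DESeq2's size factors, 0.0157 with library size alone, 9.95e-05 without the filter and 0.0794 with DESeq2, and -0.24 to 0.23 with single libraries left out. For Pgk1 in KOBLM against BLM it was 0.0493 without the libraries with the fewest genes. For Slc2a1 in KOBLM against KO it was -0.79 under the replicate block. With single libraries left out, ranges that crossed 0 were, in BLM against Con, -0.0216 to 3.53 for Eno1 and -0.22 to 0.58 for Ldha. In KOBLM against BLM they were -0.24 to 0.25 for Pfkp, -0.80 to 0.33 for Pfkfb3, -6.71 to 0.86 for Eno1 and -0.52 to 0.27 for Ldha. In KO against Con they were -0.68 to 2.50 for Slc2a1, -0.0077 to 0.59 for Aldoa and -0.46 to 0.65 for Pkm. In KOBLM against KO they were -0.72 to 2.08 for Slc2a1, -0.37 to 0.65 for Pgk1, -0.32 to 0.88 for Pkm and -0.66 to 0.16 for Eno1b. The interaction of Eno1b lost its call without the filter, under the replicate block, with Eno1 and Eno1b summed (-1.92) and without the libraries with the fewest genes. It was lost in 9 of 12 omissions of a single library, over which it lay between -2.30 and -1.44.

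Genes called over the whole table were, in BLM against Con, KOBLM against BLM, KO against Con, KOBLM against KO and the interaction, 558, 413, 188, 221 and 368 in the fit reported, 947, 755, 374, 460 and 625 with DESeq2, and 394, 262, 100, 100 and 242 with the replicate block. Without the filter 645 passed in KOBLM against BLM and 706 for the interaction, and with only the groups compared 149 passed in KOBLM against BLM and 138 in KOBLM against KO. By DESeq2, 114, 78, 80, 57 and 85 genes had an adjusted p under 0.05, and 0 by edgeR in the fit reported. Without the filter, edgeR gave 12 such genes in BLM against Con, 1 in KOBLM against BLM and 1 for the interaction. With library size alone the median log2 fold change of all genes in KO against Con moved from -0.09 to -0.21. Same-numbered libraries did not pair: the correlations of their deviations from the group means were -0.117 to 0.096. The p-values rest on 3 mice per group.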
